A study of Mus musculus with 12 samples.

Results

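Isolated STAT5 binding sites that appeared in both replicates of STAT5A-overexpressing mouse embryonic fibroblasts, and overlapped no region listed for wild-type cells, numbered 7476. They were chosen from positions alone. Regions of the 2 overexpression lists that overlapped by at least 1 bp were merged into 105565 sites, and the 30317 sites holding a region of both lists are called reproduced sites here. Of these, 27342 (90.2%) overlapped no wild-type region and are called overexpression-only. An overexpression-only site was kept as isolated when no other reproduced site lay within 25 kb, measured edge to edge, which left 7476 of 27342 (27.3%). Over all reproduced sites, shared with wild type or not, 27.2% had no other within 25 kb. The remaining 19866 overexpression-only sites, with a reproduced site within 25 kb, are called crowded. Absence from wild type, presence in both replicates and spacing were used in this choice, so they are described below and support nothing.

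STAT5A and its close relative STAT5B are transcription factors held latent in the cytoplasm. Growth hormone binds its receptor, the attached kinase JAK2 phosphorylates STAT5, and STAT5 dimers enter the nucleus and bind palindromic elements known as GAS motifs. In fibroblasts and liver this pathway is known for switching on feedback inhibitors of the SOCS family and growth-related genes. Chromatin immunoprecipitation with sequencing (ChIP-seq) finds the stretches of genome that an antibody against the factor recovers.

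The fibroblasts came from fetuses of 12.5 to 13.5 days on the C57BL/6 background and were used at passage 9 to 10. By their labels, the cells used here were starved of serum for 5 h and stimulated with growth hormone at 1 µg/ml for 45 min before STAT5 was precipitated. One group was wild type for Stat5 (1 library, 13278 regions). The other was STAT5A-Stat5-/-, that is, cells lacking their own Stat5 and overexpressing STAT5A, with 2 libraries of 71561 regions (replicate 1) and 71803 regions (replicate 2, titled as a repeat). The labels attach the replicate 2 list to an unstimulated and a stimulated library of the repeat. It was taken as the stimulated one from the name of the list, so the stimulation behind every reproduced site rests on that name. The labels do not say how STAT5A was introduced or whether the replicates came from separate cultures, and they give no promoter or clone. The regions carry no height, score or read count, and the depth of every library is unknown. The lists of the overexpressing cells differ in form and perhaps in control, so a difference between replicates may come from how regions were called. With 1 wild-type library, no test across samples was possible. The 95% exact (Clopper-Pearson) binomial intervals below cover counting error only, and sites of the same libraries are not independent replicates. Positions are on mouse build mm9, counted from 1. Nearby genes and the bases under the sites were not analysed here, because no genome or gene annotation of that build was at hand.

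The distance from an isolated site to the nearest reproduced site, which the rule sets above 25 kb, had a median of 49.3 kb and quartiles of 34.1 and 81.8 kb. Distances of 25 to 50 kb held 3810 isolated sites, distances of 50 to 100 kb held 2342, and 1324 lay more than 100 kb from the next reproduced site. The limit cut through a continuous range: 13311 sites passed a limit of 10 kb and 3666 one of 50 kb. When the sites of replicate 1 alone or replicate 2 alone were used, without the other replicate, 10.8% and 12.3% of those absent from wild type were isolated. With both lists reduced to their 13278 widest regions, 2777 sites (65.5%) were. Just inside it were chr8:32483523-32484103 at 25.009 kb, chrX:48810353-48810930 at 25.011 kb and chr4:134156277-134157120 at 25.039 kb. Just outside it were chr8:36983263-36983760 at 24.995 kb and a pair on chromosome 7, chr7:134759176-134759740 and chr7:134784718-134785251, 24.977 kb from each other. The nearest reproduced neighbour was another isolated overexpression-only site for 3790 of the 7476 (50.7%, interval 49.6 to 51.8%), a crowded overexpression-only site for 2964 (39.6%), and a site shared with wild type for 405 isolated and 317 crowded ones. Of all reproduced sites 24.7% were isolated and overexpression-only. Spacing is mutual between neighbours, so the rule itself favours isolated pairs.

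**Figure D1:**
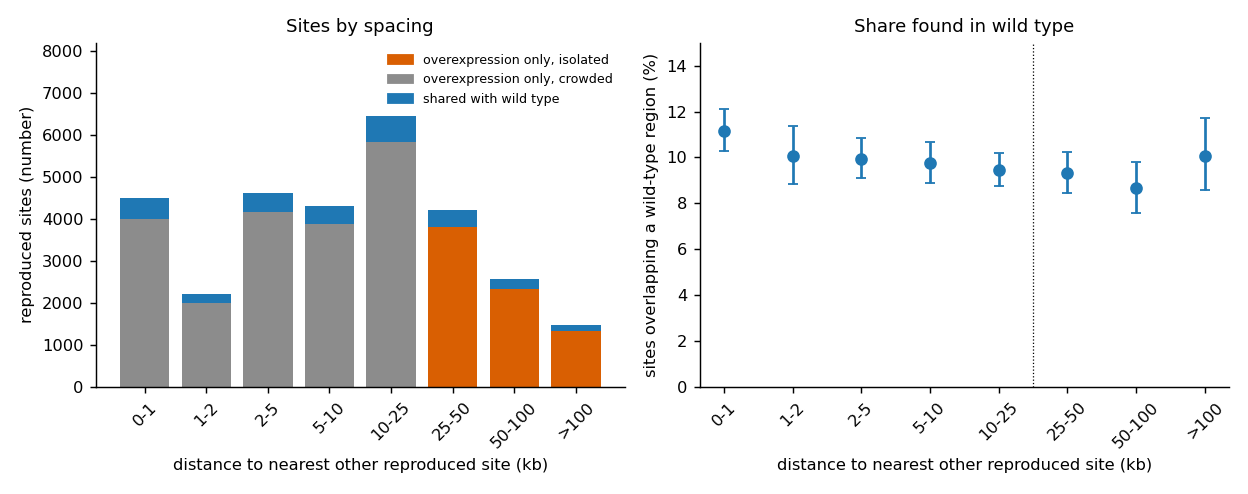
Left, number of reproduced sites (y axis) by distance in kb to the nearest other reproduced site (x axis), with isolated overexpression-only sites in orange, crowded ones in grey and sites shared with wild type in blue. Right, percent of the sites in each distance class that overlapped a wild-type region, with 95% exact binomial intervals and the 25 kb limit dotted; the shares run from 8.66% to 11.2%.

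Among reproduced sites, the share found in wild type was slightly lower for isolated than for crowded ones. Wild-type cells had a region at 762 of the 8238 reproduced sites without a neighbour within 25 kb (9.25%, interval 8.63 to 9.90%) and at 2213 of the 22079 crowded ones (10.0%, interval 9.63 to 10.4%). By distance class the share was 11.2% (interval 10.3 to 12.1%) for sites within 1 kb of another, 9.45% at 10 to 25 kb, 8.66% (interval 7.60 to 9.81%) at 50 to 100 kb and 10.1% (interval 8.57 to 11.7%) beyond 100 kb. The intervals of the isolated and the crowded sites overlap, although each share lies outside the interval of the other, and no test was available. The gap was larger where a single list was used: 5.44% of isolated and 6.69% of crowded regions of replicate 1 overlapped wild type, and 3.57% and 5.48% of those of replicate 2. With a wild-type region within 1 kb counted as shared, the shares of reproduced sites were 10.9% and 13.3%. Absence from a list of 13278 regions is not absence of binding, since that list depends on a depth that is unknown. With both overexpression lists reduced to their 13278 widest regions, 80.7% of reproduced sites overlapped no wild-type region, against 90.2%.

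Width was not itself a criterion for choosing the sites. It is the extent that the authors' caller gave each region, and it stands here in place of a height. A wider region overlaps others more easily, so the overlap rules can favour wide regions in reproduced sites and in those shared with wild type. Their part in the widths below was not tested. The isolated sites held 8922 replicate 1 regions with a median width of 439 bp and 7611 replicate 2 regions with a median of 430 bp. In the crowded overexpression-only sites the medians were 458 bp and 468 bp. Over the replicates, the medians averaged 434.5 ± 6.36 bp (SD, n = 2) in isolated and 463 ± 7.07 bp (SD, n = 2) in crowded sites. Isolated sites were thus narrower than crowded ones in both replicates, and over all their regions by more than the replicates differed. That was not so in sites with 1 region from each replicate. There the medians were 479 bp in replicate 1 and 411.5 bp in replicate 2 for isolated sites, and 499 and 442 bp for crowded ones. In those sites the replicates differed by more than the classes did. The 762 isolated sites that wild type shared were wider, with medians of 478 bp in replicate 1 and 545 bp in replicate 2. Crowded sites shared with wild type were wider still, at 528 bp and 632 bp. All reproduced sites together had medians of 458 and 468 bp. The whole lists, reproduced or not, had lower medians than the isolated sites, at 398 bp in replicate 1 and 378 bp in replicate 2. With both lists reduced to their 13278 widest regions the isolated sites had medians of 709 and 754 bp by construction.

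**Figure D2:**
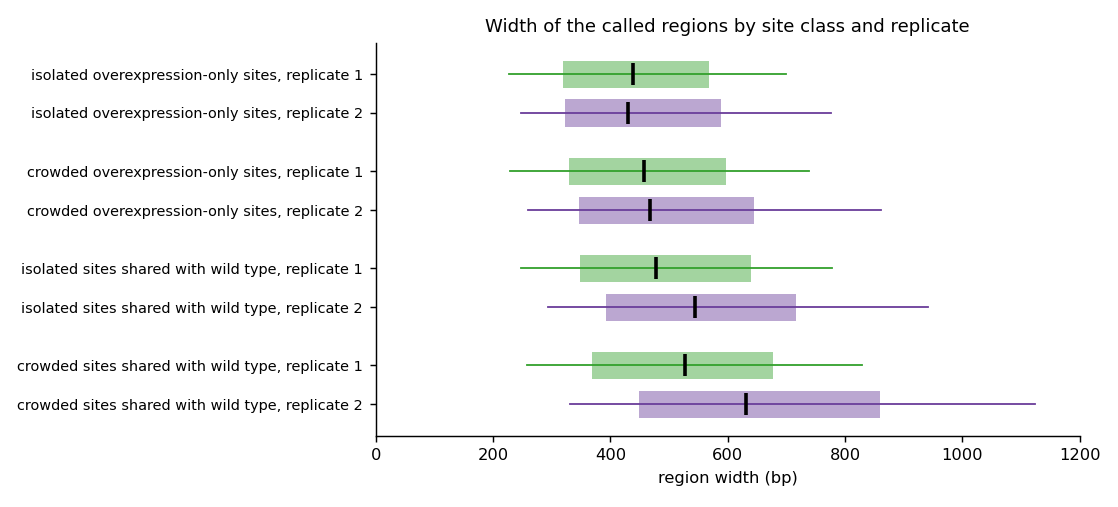
Width in bp (x axis) of the called regions of replicate 1 (green) and replicate 2 (purple) in each class of reproduced site; boxes span the quartiles, lines the 10th to 90th percentile, and black ticks mark the medians. The medians of the isolated overexpression-only sites, 439 and 430 bp, are the lowest of the classes shown in each replicate.

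The same order appeared when the overexpression-only sites were divided into 5 equal classes by the narrower of their replicate widths. Of the narrowest class, 48 to 278 bp, 31.1% (interval 29.9 to 32.3%) were isolated. Of the middle class, 27.5% (interval 26.4 to 28.7%) were, and of the widest, 542 to 1529 bp, 21.7% (interval 20.7 to 22.9%). Among the isolated sites themselves width hardly followed the distance to the next reproduced site. Spearman's rho was -0.03 in replicate 1 and -0.06 in replicate 2 over 7476 sites, which share the same libraries. The median in replicate 2 went from 439 bp at 25 to 50 kb to 411 bp beyond 100 kb, and in replicate 1 from 448 to 429 bp.

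Every reproduced site has overlapping regions in both lists by rule, which by itself keeps the positions below close. Of the isolated sites, 6078 (81.3%, interval 80.4 to 82.2%) were made of 1 region from each replicate, as were 79.3% of all reproduced sites. Another 1263 (16.9%) joined several replicate 1 regions to 1 replicate 2 region. The reverse, 1 replicate 1 region over several of replicate 2, was found at 76 (1.02%). Replicate 1 thus divided sites that replicate 2 listed whole much more often than the other way round, as it did in the crowded sites (18.2% against 0.876%).

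Within the 6078 isolated sites with 1 region each, the regions had a median overlap of 331.5 bp out of a combined median extent of 569 bp. The overlap covered at least 50% of both regions in 4691 of them (77.2%, interval 76.1 to 78.2%), against 78.9% (interval 78.2 to 79.5%) of the crowded sites. An overlap of under 50 bp, which could join neighbours rather than match them, was found at 89 (1.46%). The replicate 1 summit, the position of its peak as the authors' list gives it, fell inside the replicate 2 region at 5642 isolated sites (92.8%, interval 92.1 to 93.5%). It lay a median of 62 bp from the centre of that region, and within 100 bp at 69.8%, against 63.5 bp and 69.0% in crowded sites. Replicate 1 gave the wider region at 3851 sites (63.4%). Widths of the replicates followed each other only in part, with a Spearman correlation of 0.32 over these 6078 sites and 0.37 over the crowded ones.

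Regions found in a single replicate were not counted by the spacing rule, and most isolated sites had some. Within 25 kb, 6253 of 7476 isolated sites (83.6%, interval 82.8 to 84.5%) had at least 1 such region, against 94.8% (interval 94.4 to 95.1%) of the crowded overexpression-only sites and 91.8% of all reproduced sites. The share was 83.7% in isolated sites shared with wild type, close to that of the isolated overexpression-only sites. A region of replicate 1 alone lay within 25 kb of 4170 isolated sites (55.8%) and a region of replicate 2 alone of 4973 (66.5%), and 2890 (38.7%) had both. The site with the most, chr13:15643203-15643701, had 9 replicate 1 and 5 replicate 2 regions around it while its nearest reproduced neighbour was 28.992 kb away.

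The single-replicate regions were densest right beside the isolated sites. In the first 1 kb on either side they numbered 0.896 (replicate 1) and 0.540 (replicate 2) per 10 kb of flank and site. Between 10 and 25 kb the densities were 0.171 and 0.231, close to the 0.192 and 0.233 found between 100 and 200 kb. Crowded sites had 1.08 and 0.682 in the first 1 kb and 0.314 and 0.372 between 10 and 25 kb. Their surroundings were denser in every band shown out to 200 kb, where they had 0.228 and 0.276. Beyond the limit, between 25 and 50 kb, isolated sites had 0.180 other reproduced sites per 10 kb and crowded ones 0.296. The isolated sites that wild type shared had 0.188 there, and 0.919 and 0.584 single-replicate regions in the first 1 kb.

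**Figure D3:**
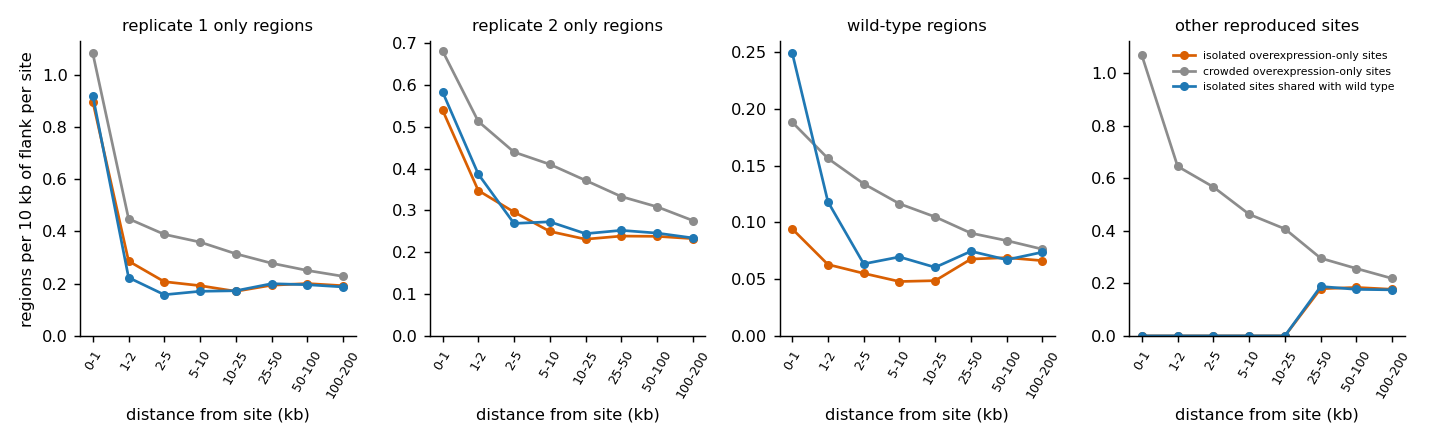
Number of regions per 10 kb of flank and site (y axes, each with its own scale) in bands of distance in kb from the site's edge (x axis), for regions of replicate 1 alone, replicate 2 alone, wild type and other reproduced sites. Orange marks isolated overexpression-only sites, grey crowded ones and blue isolated sites shared with wild type; the rule sets other reproduced sites to 0 within 25 kb of isolated sites.

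A smaller set stood without any other overexpression region within 25 kb, of either replicate. It had 1223 sites, 16.4% of the isolated ones (interval 15.5 to 17.2%), and is called solitary here. No single-replicate region lay within 25 kb of 124 of the 762 isolated sites shared with wild type (16.3%), nor of 8.17% of all reproduced sites. Solitary sites had median widths of 429 bp in replicate 1 and 404 bp in replicate 2. Isolated sites with 6 or more single-replicate regions nearby had medians of 459 and 467 bp. Solitary sites also lay farther from the nearest reproduced site, at a median of 61.3 kb against 41.3 kb. A wild-type region lay within 25 kb of 160 solitary sites (13.1%, interval 11.2 to 15.1%) and of 195 of the 546 sites with 6 or more such regions (35.7%, interval 31.7 to 39.9%). The definition of solitary also keeps out wild-type regions overlapping a single-replicate region within 25 kb.

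Wild-type regions near the isolated sites, which by rule do not overlap them, were sparser than near crowded ones. The spacing rule also keeps out other reproduced sites within 25 kb, along with the wild-type regions overlapping those. Part of the contrast with crowded sites within 25 kb therefore follows from the rule. At least 1 wild-type region lay within 25 kb of 1656 isolated sites (22.2%, interval 21.2 to 23.1%), against 7952 crowded overexpression-only sites (40.0%, interval 39.3 to 40.7%) and 36.0% of all reproduced sites. Of the isolated sites shared with wild type, 200 of 762 (26.2%, interval 23.2 to 29.5%) had another wild-type region that near. So did 50.4% of the crowded shared sites. The median distance to the nearest wild-type region was 62.7 kb for isolated and 37.4 kb for crowded sites. Near misses, with a wild-type region within 1 kb, were found at 135 isolated sites (1.81%). No wild-type region lay within 500 kb of 169 isolated sites (2.26%). Of the crowded overexpression-only sites, 721 (3.63%) had one within 1 kb and 209 (1.05%) none within 500 kb. The 22.2% was 14.8% when each list was limited to regions at least as wide as its median. That setting also left only 6650 of the 13278 wild-type regions to lie near a site. The wild-type density beside isolated sites was 0.0943 regions per 10 kb in the first 1 kb, the densest band, and 0.0486 between 10 and 25 kb. Past the limit it was 0.0677 between 25 and 50 kb and 0.0663 between 100 and 200 kb. Beside crowded overexpression-only sites the densities in these bands were 0.188, 0.105, 0.0905 and 0.0763. Wild-type regions thus lay more thickly around crowded sites, where the overexpression lists were dense as well.

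**Figure D4:**
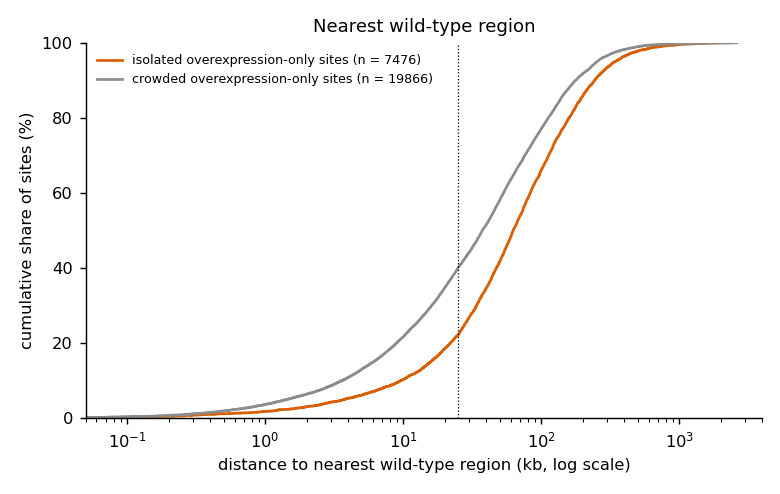
Cumulative percent of sites (y axis) with a wild-type region within the distance on the x axis (kb, log scale), for the 7476 isolated (orange) and 19866 crowded (grey) overexpression-only sites, with 25 kb dotted. At 25 kb the curves stand at 22.2% and 40.0%. For isolated sites the rule keeps out other reproduced sites within 25 kb, and the wild-type regions overlapping them.

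Seen list by list, lone regions were found again less often. Replicate 1 had 7652 regions (10.7%) with no other replicate 1 region within 25 kb, and 39.7% of them (interval 38.6 to 40.8%) overlapped replicate 2. Of its other 63909 regions 53.4% (interval 53.0 to 53.8%) did. In replicate 2, 31.4% (interval 30.4 to 32.4%) of 8649 lone regions and 44.7% (interval 44.3 to 45.1%) of the others overlapped replicate 1. The widths of these lone regions went different ways in the lists. Lone replicate 1 regions had a median of 408 bp and the others 398 bp. Lone replicate 2 regions, at 343 bp, were narrower than the others, at 383 bp. Wild-type regions overlapped 5.44% (interval 4.94 to 5.97%) of the lone and 6.69% (interval 6.50 to 6.88%) of the other regions of replicate 1, and 3.57% (interval 3.19 to 3.99%) and 5.48% (interval 5.31 to 5.66%) of those of replicate 2. Among lone regions that the other replicate also had, 8.53% and 8.44% overlapped wild type, against 8.96% and 9.59% of the others.

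The broadest isolated sites were chosen by the narrower of their replicate widths, among sites with 1 region per replicate. The first was chr15:7827493-7828614, 1078 bp wide in replicate 1 and 1122 bp in replicate 2. Its nearest reproduced site lay 62.5 kb away and its nearest wild-type region 148 kb away. At chr7:100402376-100403560 the widths were 1138 and 1065 bp, the replicate 1 summit was 27.5 bp from the centre of the replicate 2 region, and the next reproduced site was 161 kb away, although a wild-type region lay at 10.3 kb. The site chr17:64249983-64251380 was 1398 bp wide in replicate 1 and 1055 bp in replicate 2. The site chr13:49393903-49395030 measured 1128 and 1037 bp, with the summit 16.5 bp from the replicate 2 centre. The other sites of the first 10 were chr6:113255973-113257335, chr4:119604956-119606220, chr10:116873867-116874900, chr6:84034463-84035710, chr10:121369953-121370990 and chr3:60614253-60615330, with narrower widths from 989 down to 965 bp. Wild-type regions lay within 25 kb of 3 of these 10, at chr7:100402376, chr6:84034463 and chr3:60614253. One of the 10, chr10:121369953-121370990, was solitary, with widths of 1038 and 982 bp and a reproduced neighbour at 27.8 kb.

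The most isolated sites were mostly narrow. On chromosome X, chrX:78317113-78317411 lay 3.45 Mb from the nearest reproduced site and was 299 bp wide in replicate 1 and 195 bp in replicate 2. The site chrX:109369109-109369430 lay 3.03 Mb away, with widths of 278 and 220 bp, no other overexpression region within 25 kb and the nearest wild-type region at 2.32 Mb. The site chr14:113019953-113020851, 2.42 Mb from its neighbour, was wider, at 699 and 747 bp. It was followed by chr15:47698073-47698556 at 2.31 Mb (378 and 305 bp) and chr11:37931217-37931790 at 2.08 Mb (508 and 247 bp). The chromosome 11 site had a wild-type region 29.5 kb away, much closer than any reproduced site.

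The density of isolated sites on the autosomes ran from 2.24 per Mb on chromosome 7 to 3.48 on chromosome 13, a ratio of 1.56, with a median of 2.89. Reproduced sites ran from 9.63 per Mb on chromosome 7 to 16.7 on chromosome 10, a ratio of 1.73. The share of overexpression-only sites that were isolated lay between 23.1% (interval 21.1 to 25.3%) on chromosome 8 and 31.9% (interval 28.8 to 35.2%) on chromosome 17. Chromosome 10 had by far the most wild-type regions per Mb, 12.9 against 5.74 on chromosome 13, the next highest. There 447 sites were isolated (24.1%), and 38.0% of them had a wild-type region within 25 kb. The autosomal median of that last share was 22.1%.

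Chromosome X stood apart. It had 241 isolated sites, 1.45 per Mb or 0.502 times the autosomal median, but 0.297 times the median for reproduced sites (3.55 per Mb). Its overexpression-only sites were isolated in 43.0% (interval 38.8 to 47.2%). The 241 isolated sites lay a median of 69.5 kb from the next reproduced site, and 6.64% of them had a wild-type region within 25 kb. Wild-type regions themselves numbered 0.901 per Mb on chromosome X, against 3.17 on chromosome 4, the lowest of the autosomes. Median widths there were 418 bp in replicate 1 and 409 bp in replicate 2. The number of X chromosomes in these cells is not stated in the labels, and its part in these values was not tested.

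**Figure D5:**
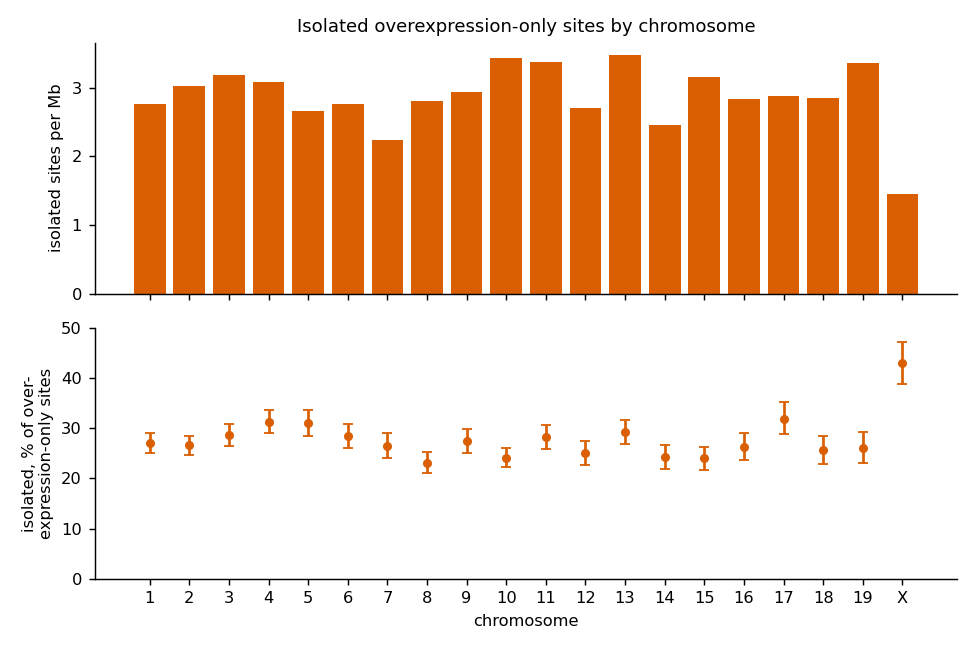
Top, isolated overexpression-only sites per Mb on each chromosome (bars from 0; span up to the last region). Bottom, isolated sites as percent of the overexpression-only sites of the chromosome with 95% exact binomial intervals; chromosome X has the lowest density, 1.45 per Mb, and the highest share, 43.0%.

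Across the genome, most windows of 1 Mb with a reproduced site held an isolated one, which is itself a reproduced site. Of 2629 windows, 2137 held a reproduced site and 2015 (76.6% of the 2629) held an isolated one. Windows with 10 to 19 reproduced sites had a mean of 4.15 isolated sites, and those with 20 to 29 and with 30 or more had 4.70 and 4.14. In the densest windows 98.1% still held an isolated site, although only 12.9% of their overexpression-only sites were isolated, against 60.8% in windows with 1 to 4 reproduced sites. In 215 windows every reproduced site was isolated and overexpression-only; 124 windows of the genome held a single reproduced site, where this takes 1 site. No window held more than 12 isolated sites.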

How the data were processed

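STAT5 ChIP-seq regions of growth-hormone-stimulated mouse embryonic fibroblasts were used: 1 wild-type list and 2 lists of STAT5A-overexpressing Stat5-/- cells, grouped by sample title. The labels tie the replicate 2 list to both the unstimulated and the stimulated repeat library, and it was assigned to the latter by its name. The values are start, end and, except in replicate 2, summit positions on mm9, as deposited by the authors and per the file headers. Names of the replicate 2 regions begin with MACS, the program that called them, per the file headers. For callers of the other lists, versions, aligners, thresholds and controls, the sources used here give nothing. The other 9 libraries of the series were not analysed here.

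Positions were treated as BED intervals and no region was filtered out. Sites, spacing and overlaps were computed as stated beside the results. The functions recovered all 1931 planted isolated sites in simulated lists of 7000 loci, and bedtools 2.31.1 gave the same 7476 sites. Scripts used scipy 1.17.1, pandas 2.3.3, numpy 2.4.6, and for plots matplotlib 3.10.9, under Python 3.11.15. The sites, lists and alternatives were chosen with earlier results of these data known. Named regions, none on chromosome 18, are the 10 broadest by the narrower replicate width, the 5 farthest from another reproduced site and the 3 on either side of the 25 kb limit. The site with the most single-replicate neighbours and those named under other observations were chosen after their values were seen. Planned shares with a GAS motif, near gene starts and at listed genes were not computed, for want of the mm9 sequence and annotation.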

Additional observations from a re-analysis of the deposited data

How the results depend on the processing

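Of 68 alternative values, 26 stayed within the counting interval of a share, the replicate spread of a width or 1.5 times a count, and 42 moved; shares, widths and counts of this kind have no direction to reverse. The results were the number of isolated sites (7476), their share of overexpression-only sites (27.3%), the median widths (439 bp in replicate 1, 430 bp in replicate 2), and the shares with a single-replicate region (83.6%) and with a wild-type region (22.2%) within 25 kb. In that order, a limit of 10 kb gave 13311, 48.7%, 448 bp, 438 bp, 87.7% and 27.3%. A limit of 50 kb gave 3666 and 13.4%, 421 bp in replicate 2, 79.8% and 20.7%. Requiring no other overexpression region within 25 kb gave 1223, 4.47%, 429 bp, 404 bp, 0% by construction and 13.1%. Reciprocal overlap of at least 50% gave 34.4%, 458 bp, 443 bp, 87.1% and 24.2%. The wider part of each list, with 6650 wild-type regions, gave 41.1%, 559 bp, 560 bp, 70.6% and 14.8%. With no wild-type region within 1 kb, the last share was 20.7%. Leaving out replicate 1 or replicate 2 gave shares isolated of 10.8% to 12.3% and wild-type shares of 15.8% to 16.7%, with 398 bp in replicate 1 alone and 340 bp in replicate 2 alone; a single list has more sites to lie near, and it gives no share with a single-replicate region. Chosen after seeing the data were 4 settings. Overexpression lists reduced to their 13278 widest regions gave 2777, 65.5%, 709 bp, 754 bp, 53.4% and 31.9%. The last share was 19.1% with the 11565 of 13278 wild-type regions whose edges lie on a 10 bp grid, and 21.1% without chromosome 10. The other wild-type regions lay off that grid, so the wild-type list is mixed in form, and why is not known. Leaving out chromosome X moved none of the 6. Other causes of these moves were not tested. The share of isolated reproduced sites found in wild type stayed below that of crowded ones in each of these settings, for example 18.3% against 21.1% with the reduced lists. No paired analysis was possible because wild type has 1 library, so only replicate number 1 occurs in both groups. Settings that need sequence or genes were left out. Depth is unknown and limits any reading of absence from a list.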

Other observations

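Some isolated sites missed overlap with wild type by a few bases. At chr5:82043516-82044221 a wild-type region began at 82044223, leaving a gap of 1 bp. At chr10:7779208-7779530 a wild-type region ended 7 bp before the site, and at chr6:34583573-34584021 one ended 12 bp before it. The chromosome 6 site also had 6 replicate 1 and 5 replicate 2 single-replicate regions and 3 wild-type regions within 25 kb.

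At the other end, the sites farthest from any wild-type region were on chromosome X. The site chrX:166234761-166235600 lay 2.45 Mb from the nearest wild-type region, with a reproduced site at 45.1 kb. The solitary site chrX:125693493-125693920, 428 bp wide in replicate 1 and 250 bp in replicate 2, lay 2.17 Mb away. Among solitary sites, the broadest after the one on chromosome 10 were chr4:17159873-17160898 (969 and 952 bp) and chr17:75806613-75807710 (1098 and 930 bp). The former had its next reproduced site at 68.2 kb and the latter at 56.4 kb. Their nearest wild-type regions were 31.4 and 25.9 kb away.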
